A study of Mus musculus with 26 samples.

Results

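The Rhox genes (reproductive homeobox genes on the X chromosome) were read in single cells of female fetal mouse ovaries as every row of the deposited count table whose symbol begins with Rhox and a digit. The rule gave 34 members among 16344 gene rows: 8 Rhox2 copies (Rhox2a to Rhox2h), 7 Rhox3 copies (Rhox3a, Rhox3a2, Rhox3c, Rhox3e, Rhox3f, Rhox3g and Rhox3h), 8 Rhox4 copies (Rhox4a, Rhox4a2 and Rhox4b to Rhox4g) and 11 others (Rhox1, Rhox5, Rhox6, Rhox7a, Rhox7b and Rhox8 to Rhox13). All 34 had at least 1 counted molecule. The rule used names only and no measured value. The mice carried 2 transgenic reporters, Blimp1-mVenus and Stella-ECFP (abbreviated BVSC), whose genes are active in primordial germ cells. Gonads from several embryos of a stage were pooled, from E11.5 to E18.5 with the day of the plug as E0.5, digested with trypsin and sorted by fluorescence. The 1881 cells fell into 3 gates named in the table's columns: 1302 BVSC cells, 529 Negative cells without reporter fluorescence and 50 BV cells. They came from 26 libraries, numbered here 1 to 26 in order of deposition. All cells of all gates were from female fetuses of this transgenic strain, with no treatment group, and every column name labels them WT and 2N. A reporter gate marks cells by fluorescence and not by lineage.

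Homeobox genes encode DNA-binding transcription factors, and the Rhox genes form a cluster of such genes that arose by repeated local duplication in rodents. Most members are known for expression in placenta, testis, ovary or germ cells, and DNA methylation is known to keep much of the cluster silent in somatic tissue. Female germ cells erase most DNA methylation and reactivate the inactive X chromosome as they colonise the gonad, then enter meiosis and become oocytes.

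The cluster ran from chrX:37213804-38129967 in GRCm38, a span of 916.2 kb that held all 34 members and 2 other protein-coding genes. Rhox1 lay at one end and Rhox13 at the other. Between them the Rhox2, Rhox3 and Rhox4 copies alternated, followed by Rhox5, Rhox6, Rhox7a, Rhox8, Rhox7b and Rhox9 and then by Rhox10, Rhox11 and Rhox12. The exons of Rhox2c and Rhox3c overlap on the same strand.

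Because reads were taken from the 3′ ends of transcripts, the last 500 bases of each annotated transcript were compared between members in runs of 75 bases. Every such run in Rhox3a, Rhox3a2, Rhox2e and Rhox4a2 was also found in another member. The share was 93.54% in Rhox4b, 90.28% in Rhox3e and 82.39% in Rhox2b, and it was lowest among the lettered copies in Rhox2h, at 23.29%. Rhox7a and Rhox7b had 32.58% and 47.18% of their runs in common with each other. Rhox1, Rhox5, Rhox6, Rhox8, Rhox9, Rhox10, Rhox11, Rhox12 and Rhox13 shared no run with another member.

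Some copies had equal or nearly equal counts, but the counts did not follow the shared runs in every pair. Rhox3a and Rhox3a2 had equal counts in 168 of the 168 cells with a molecule of either. Rhox4a and Rhox4a2 were equal in 613 of 640 cells, and Rhox4f and Rhox4g in 444 of 619. Across cells, Pearson's r of the counts was 0.9853 for Rhox2b with Rhox2e and 0.9807 for Rhox7a with Rhox7b. Other pairs went apart from their shared runs. Rhox3e had 90.28% of its runs in Rhox3a, yet the 2 were equal in 16 of 195 cells (r 0.2788). Rhox2h had 16.08% of its runs in Rhox2a, and r was 0.8884. Unshared genes could also run close together, as r was 0.96 for Rhox6 with Rhox9. These correlations describe 1881 cells that share libraries and stages. Values of single lettered copies are therefore uncertain, one molecule may be counted under several copies, and each subfamily is also given as the sum of its rows, without a test.

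RefSeq start sites with 250 bases of upstream sequence (GRCm38.p6) were found for 27 of the 34 members. Members had a median of 4 CpG dinucleotides in this window, against 6 over all 32851 promoters and 5 over 1196 other X-linked promoters. At least 5 CpG were found in 48.15% of the members and 55.58% of all promoters. The windows below are of Rhox2a, Rhox4e, Rhox3a, Rhox13 and Rhox1, with CpG in capitals, to show the CpG content of members with different time courses. They lie at chrX:37244742-37244991 (Rhox2a, plus strand), chrX:37557162-37557411 (Rhox4e, plus strand), chrX:37249669-37249918 (Rhox3a, plus strand), chrX:38120590-38120839 (Rhox13, plus strand) and chrX:37222259-37222508 (Rhox1, minus strand). The Rhox13 window ends at the RefSeq start, 379 bases from the start in the other annotation. Rhox5, Rhox6 and Rhox9 are not shown. Rhox6 and Rhox9 had no window, and that of Rhox5 ended 50234 bases from its start in the other annotation. Those of Rhox3c and Rhox3e ended 11283 and 4956 bases from theirs. The windows of Rhox5, Rhox3c and Rhox3e are counted in the CpG summary above. It also counts near copies, such as Rhox2a and Rhox2c, alike at 99.6% of positions, so the windows are not independent.
Rhox2a: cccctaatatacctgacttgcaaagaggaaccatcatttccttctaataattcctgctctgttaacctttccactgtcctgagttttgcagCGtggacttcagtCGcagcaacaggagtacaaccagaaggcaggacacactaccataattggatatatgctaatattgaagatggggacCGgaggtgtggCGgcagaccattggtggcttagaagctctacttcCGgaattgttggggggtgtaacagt
Rhox4e: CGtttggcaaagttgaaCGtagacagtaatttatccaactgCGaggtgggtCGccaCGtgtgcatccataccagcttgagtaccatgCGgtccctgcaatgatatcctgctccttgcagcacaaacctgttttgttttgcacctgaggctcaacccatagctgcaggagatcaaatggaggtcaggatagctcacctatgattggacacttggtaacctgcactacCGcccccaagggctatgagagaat
Rhox3a: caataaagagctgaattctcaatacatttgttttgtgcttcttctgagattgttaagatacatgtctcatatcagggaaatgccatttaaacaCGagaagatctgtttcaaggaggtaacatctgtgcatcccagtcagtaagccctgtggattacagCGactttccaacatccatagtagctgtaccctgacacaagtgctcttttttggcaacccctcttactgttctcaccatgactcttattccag
Rhox13: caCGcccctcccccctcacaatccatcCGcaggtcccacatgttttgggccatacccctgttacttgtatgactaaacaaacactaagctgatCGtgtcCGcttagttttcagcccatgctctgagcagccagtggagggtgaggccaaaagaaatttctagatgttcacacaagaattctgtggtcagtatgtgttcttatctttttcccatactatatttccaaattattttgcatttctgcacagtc
Rhox1: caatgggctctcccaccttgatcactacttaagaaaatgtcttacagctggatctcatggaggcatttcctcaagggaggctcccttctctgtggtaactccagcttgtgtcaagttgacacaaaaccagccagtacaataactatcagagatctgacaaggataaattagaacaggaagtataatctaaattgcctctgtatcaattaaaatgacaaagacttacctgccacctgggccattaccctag
Rhox4e held 7 CpG, Rhox2a 5, Rhox13 4, Rhox3a 2 and Rhox1 0. The window of Rhox3h was identical to that of Rhox3a at 100% of positions.

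The 6-letter sequence CACGTG (its own reverse complement, known as an E-box) was in 5 members, all Rhox4 copies: Rhox4a2, Rhox4b, Rhox4e, Rhox4f and Rhox4g. That was 18.52% of the members and 6.02% of all promoters. It lay in a stretch of 42 bases that the Rhox4 windows share, shown here for 3 copies with CACGTG in capitals, to show what separates Rhox4c from the others. The stretches are at chrX:37557195-37557236 (Rhox4e), chrX:37432249-37432290 (Rhox4b) and chrX:37480102-37480143 (Rhox4c), all on the plus strand.
Rhox4e: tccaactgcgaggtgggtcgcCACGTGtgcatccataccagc
Rhox4b: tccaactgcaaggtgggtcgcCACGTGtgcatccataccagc
Rhox4c: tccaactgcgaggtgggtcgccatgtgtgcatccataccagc
Counted from 1 at the 5′ end and against Rhox4e, Rhox4b has G10A and Rhox4c has C24T, which falls in the motif. Rhox4a2, Rhox4f and Rhox4g have the Rhox4e letters, and the Rhox4a window starts after the motif. TCCCGC on either strand was in 0 of the members and in 16.9% of all promoters. TGACGTCA was in 0 of the members against 1.55%, and TATAAA on either strand was in 1 member, Rhox12, against 12.37%. A match or its absence describes these letters in this window only.

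Counts were summed over the cells of 1 library, 1 stage and 1 gate, and such a sum is called a pool. There were 18 BVSC, 17 Negative and 3 BV pools of 5 to 96 cells with 446683 to 27498626 counted molecules (unique molecular identifiers, UMIs). Single cells had a median of 214706 UMIs, from 10016 to 948642. Levels are counts scaled to 1000000 UMIs of the pool (CPM), and the libraries are the replicates. The cell table also gives each cell a replicate label, R1 or R2, within its stage, which libraries can share: libraries 1 and 2 of E11.5 are both R1, and so are libraries 4, 5, 12 and 13 of E14.5. The 4 BVSC pools of E14.5 thus hold 2 labelled replicates and the 2 BV pools hold 1, and the tests were repeated with libraries merged by that label. The labels do not say that libraries came from separate litters, and p-values reflect only how far libraries vary. A lower level in a pool may reflect fewer expressing cells or less RNA per cell, and these cannot be told apart in sums.

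The gates went with their markers. By summed germ cell against gonadal somatic markers, 1287 of 1302 BVSC cells and 507 of 529 Negative cells were on their own gate's side. The 12 germ cell markers with rows summed to 2031 to 5029 CPM in BVSC pools and 53.2 to 897 CPM in Negative pools, and none was at 0 in a BVSC pool. The 10 somatic markers summed to 12.6 to 293 CPM in BVSC pools and 1511 to 2727 CPM in Negative pools. Some libraries stood apart. At E15.5 the BVSC pools of libraries 16 and 18 differed in several members, and the Negative pool of library 17 was high for several. The 5 BV cells of E11.5 had macrophage markers at 8850 CPM and germ cell markers at 114 CPM.

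Most Rhox members that could be tested were higher in BVSC than in Negative pools. The comparison asks which members differ between the gates on average over stages. Of the 22 members that passed the filter on low counts, 21 were higher in BVSC pools, against 38% of all genes tested. A gene can pass this filter through its counts in BVSC pools alone. Rhox4b, Rhox4f and Rhox4g held 18, 38 and 41 UMIs over all 17 Negative pools. For such sparse members the direction was largely set by the filter, so their calls add little to the count. One, Rhox8, was lower, against 29.8% of all genes, and 67.8% of all genes differed in either direction. The median log2 difference was 4.49 over the 22 members and 0.18 over the 7261 genes tested (edgeR quasi-likelihood test with stage as a covariate, Benjamini-Hochberg adjustment over all genes, threshold 0.05).

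All 8 Rhox2 copies were higher in BVSC pools, by 4.23 to 5.01 on the log2 scale. Rhox2a ranged from 111 to 268 CPM with a median of 196 in 18 BVSC pools. In 17 Negative pools it ranged from 0 to 30.5 with a median of 11.6. The lowest BVSC pool lay above the highest Negative pool, as it did for each of the other Rhox2 copies. As the copies share reads, these are not 8 independent results. The share of all genes without such overlap was not computed. The edgeR difference for Rhox2a was 4.52 ± 0.47 (log2, SE; adjusted p = 3.72e-10).

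Rhox4 copies were higher in BVSC pools by 4.46 to 5.64 (log2) in the 5 that passed the filter, namely Rhox4a, Rhox4a2, Rhox4b, Rhox4f and Rhox4g. Rhox4a ranged from 0.211 to 72.96 CPM with a median of 22.5 in BVSC pools, and from 0 to 2.11 with a median of 0.304 in Negative pools. The 2 gates overlapped, with late BVSC pools as low as Negative ones. The difference was 4.46 ± 0.61 (adjusted p = 1.19e-07, edgeR). Rhox4c, Rhox4d and Rhox4e were not tested and reached at most 3.11, 0.553 and 2.43 CPM in a Negative pool.

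Of the single-copy members, Rhox5 (Pem, the founding member, best known from Sertoli cells and placenta) had a median of 517 CPM in BVSC pools and 21.8 CPM in Negative pools. Its difference was 3.44 ± 0.44 (adjusted p = 2.93e-08, edgeR). Rhox9, known from placenta and germ cells, had medians of 463 and 9.36 CPM, a difference of 4.42 ± 0.47 (adjusted p = 6.65e-10). Rhox6, known from the same tissues, differed by 4.07 ± 0.44. For all 3 the ranges of the gates overlapped, since late BVSC pools lay within the range of early Negative pools.

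Rhox13 had a median of 118 CPM in BVSC pools and 1.29 CPM in Negative pools, with one Negative pool, of library 17, at 76.5 CPM. Its difference was 4.52 ± 0.46 (adjusted p = 2.25e-10, edgeR). Rhox1, Rhox7a and Rhox7b were higher by 4.39, 4.22 and 4.14. Rhox10, known for its part in establishing spermatogonial stem cells, was higher by 2.66 ± 0.89 (adjusted p = 0.00878). That call was lost without the Negative pools of libraries that also held BVSC cells (2.51, adjusted p = 0.193).

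The 7 Rhox3 copies, Rhox11 and Rhox12 were too sparse for the test. Rhox3c, Rhox3f, Rhox11 and Rhox12 had 0 UMIs in all 17 Negative pools and 101, 45, 283 and 130 UMIs in the BVSC pools. Against a floor of 3 counts over the Negative group these were at least 9.17-fold, 4.09-fold, 25.7-fold and 11.8-fold higher by counts alone. Their UMIs in all gates came from 25, 9, 40 and 25 cells. The bounds leave out the spread between cells and libraries and the mix of stages. Rhox3g had 6 UMIs in BVSC pools and 0 in Negative pools, too few for a bound. Rhox3a had 1053 UMIs in BVSC pools and 28 in Negative pools.

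**Figure D1:**
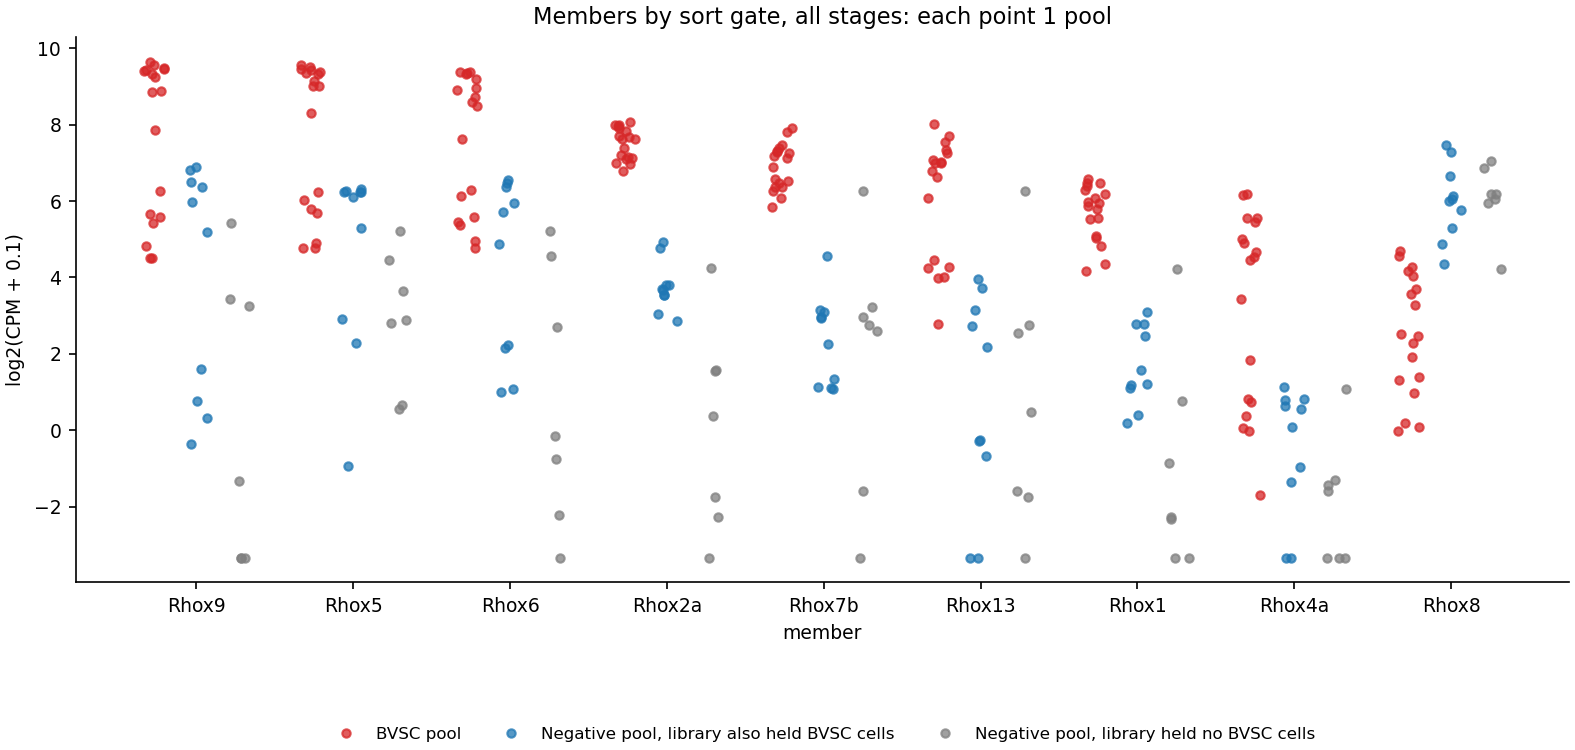
Levels of 9 Rhox members on the vertical axis as log2(CPM + 0.1), by member on the horizontal axis. Each point is 1 pool, coloured by gate and, for Negative pools, by whether the library also held BVSC cells. For Rhox2a the BVSC points (111 to 268 CPM) lie above all Negative points (0 to 30.5 CPM), while Rhox8 lies higher in most Negative pools.

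Rhox8, known from Sertoli and granulosa cells, went the other way. It ranged from 18.5 to 176 CPM with a median of 66.3 in Negative pools and from 0.886 to 25.99 with a median of 5.54 in BVSC pools. The ranges overlapped at E11.5, where BVSC pools had 17.8 and 25.99 CPM and Negative pools 18.5, 20.4 and 29.5 CPM. The difference was −3.49 ± 0.45 (log2, adjusted p = 4.08e-08, edgeR). In the 15 BVSC cells whose markers went against the gate, Rhox8 was at 103 CPM, against 9.79 CPM in the other 1287.

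The same 15 cells were low in the other members. Rhox9 was at 45.8 CPM in them and 421 CPM in the other BVSC cells, and Rhox2a at 14.9 and 195 CPM. In the 22 Negative cells whose markers went against their gate, Rhox13 was at 163 CPM, against 3.47 CPM in the other 507 Negative cells. Rhox9 was at 65.6 and 19.5 CPM in these 2 sets. Stage is mixed into these contrasts, that of Rhox8 included. Of the 15 BVSC cells, 4 were from E13.5, 3 from E14.5, 3 from E15.5 and 5 from E16.5. Of the 22 Negative cells, 5 were from E15.5, 3 from E16.5, 5 from E17.5 and 6 from E18.5, and the rest from E11.5 and E13.5. The part of stage was not tested. With all cells that went against their gate left out of the pools, 22 members were higher and 1 was lower in BVSC pools.

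Negative pools were not free of the germ cell members. As a percentage of the BVSC level, Rhox9 had a median of 7.92% in the 10 Negative pools whose library also held BVSC cells and 0.054% in the 7 whose library held none. For Rhox2a the medians were 7.00% and 0.957%, and for Rhox1 6.44% and 0.155%. Rhox7b did not show this, with 3.81% and 3.86%. The germ cell markers as a sum moved alongside, at 11.7% and 2.51%. Stages differ between the 2 sets, and their part in the difference was not tested.

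**Figure D2:**
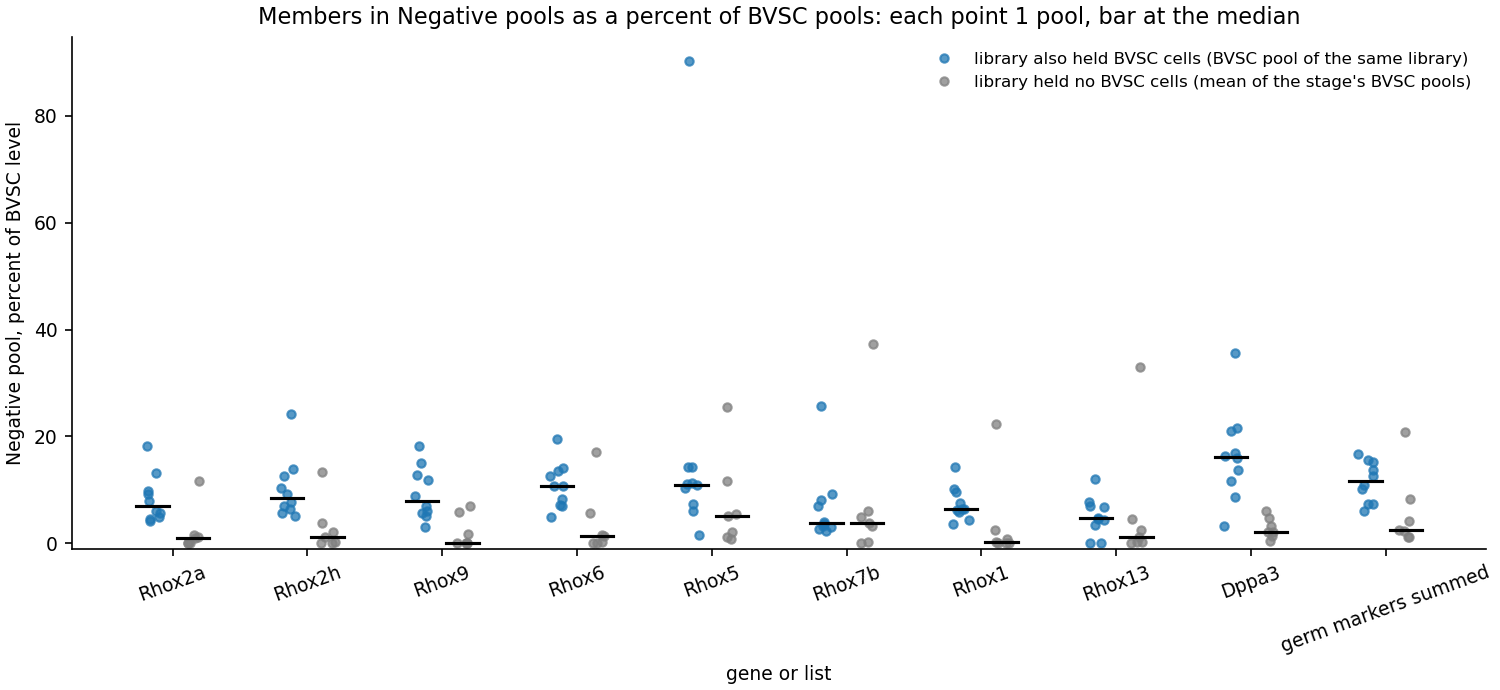
Levels in Negative pools as a percentage of the BVSC level (vertical axis), by gene or list (horizontal axis). Each point is 1 Negative pool, blue where its library also held BVSC cells and grey where not, with a bar at the median. The blue median is higher for Rhox2a (7.00% against 0.957%) and Rhox9 (7.92% against 0.054%), and nearly equal for Rhox7b (3.81% against 3.86%).

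Within BVSC pools, most members changed with stage. Of 32 members tested, 25 differed among the 8 stages, against 41% of the 10246 genes tested (edgeR F test over stages, adjusted over all genes). Rhox2b, Rhox2c, Rhox2e, Rhox2f, Rhox3c, Rhox10 and Rhox12 did not pass, and Rhox3f and Rhox3g were filtered out. The summed level of all members fell from a mean of 3244 CPM at E11.5 (2 pools) and 3051 CPM at E14.5 (4 pools) to 1128 CPM at E16.5 and 1058 CPM at E18.5 (2 pools each). The sum counts shared molecules more than once and has no test.

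Rhox5, Rhox6 and Rhox9 held their highest levels up to E14.5. Rhox9 was at 749 and 707 CPM in the E11.5 pools and at 601, 678, 467 and 459 CPM in the E14.5 pools. It was at 76.4 and 230 CPM at E15.5, 50.04 and 48.02 CPM at E16.5 and 22.6 and 28.04 CPM at E18.5. Every pool from E15.5 on lay below every earlier pool. Rhox5 was at 664 and 695 CPM at E11.5 and at 649, 643, 516 and 517 CPM at E14.5. It was at 55.1 and 317 CPM at E15.5, then 29.9 and 27.4 CPM at E16.5 and 65.2 and 51.9 CPM at E18.5. Rhox6 was at 659 and 650 CPM at E11.5, between 357 and 499 CPM at E14.5 and at 47.5 and 69.97 CPM at E16.5.

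The lowest stage mean was at E16.5 for Rhox5 and at E18.5 for Rhox6 and Rhox9. At E17.5 the pools were at 22.5 and 42.7 CPM for Rhox9 and at 31.04 and 43.6 CPM for Rhox6, below both E16.5 pools. The E17.5 and E18.5 pools of these members overlapped, as did the E16.5 and E17.5 pools of Rhox5.

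**Figure D3:**
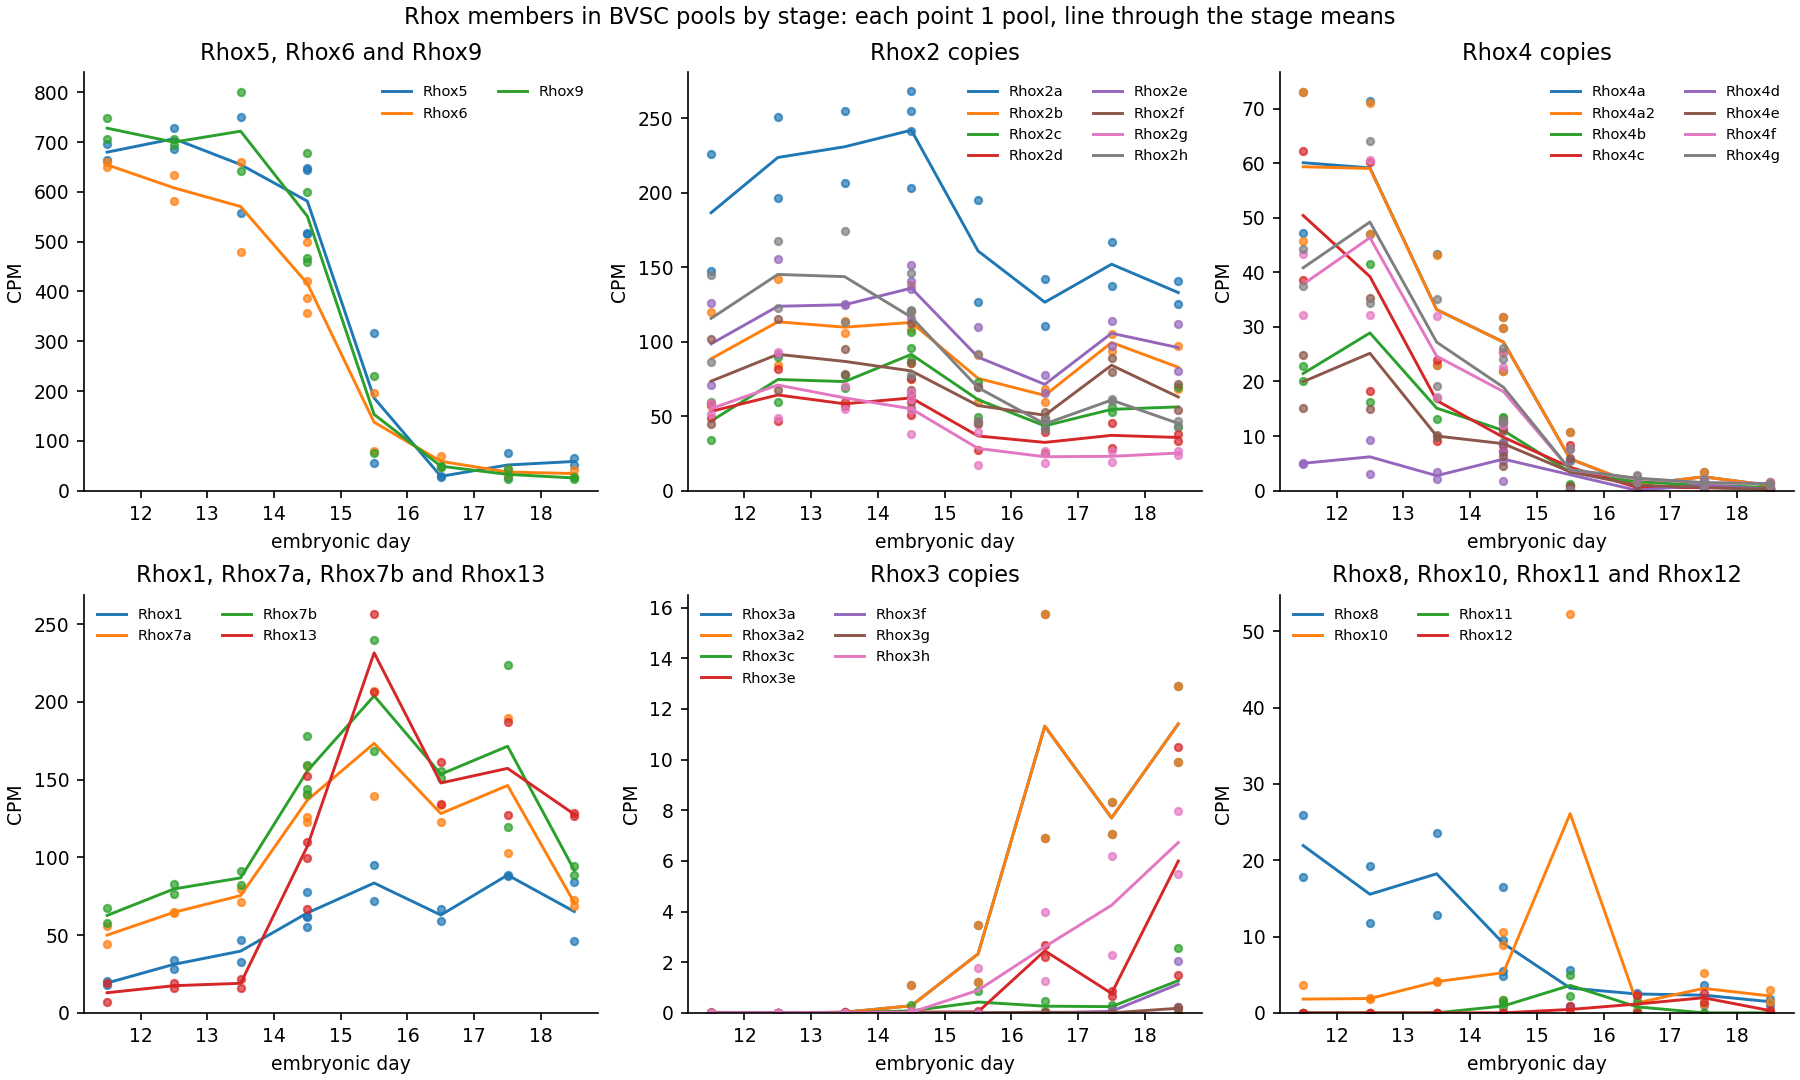
CPM (vertical axis, scaled per panel) against embryonic day (horizontal axis) for all 34 members in BVSC pools, in 6 panels by group. Points are pools and lines join stage means. Rhox5, Rhox6 and Rhox9 drop between E14.5 and E16.5 (Rhox9 from a lowest pool of 459 to a highest of 50.04 CPM) together with the Rhox4 copies, Rhox13 rises before that, and the Rhox3 copies hold most of their counts from E15.5 on.

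From E11.5 to E14.5, which spans late primordial germ cells and meiotic entry, 4 members rose, against 8.35% of all genes tested. One fell, against 5.58%. Rhox13 rose most, by 2.81 ± 0.42 (log2, adjusted p = 0.000147, edgeR). It was at 6.85 and 19.01 CPM at E11.5, 15.8 and 19.09 CPM at E12.5 and 16.01 and 21.99 CPM at E13.5. At E14.5 it was at 152, 66.9, 99.6 and 110 CPM, and at E15.5 at 257 and 207 CPM. The E14.5 pools lay wholly above the earlier ones, and so did every later pool.

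Rhox1 rose by 1.54 ± 0.30 (adjusted p = 0.00146, edgeR), from 17.9 and 20.5 CPM to between 55.5 and 77.9 CPM. Rhox7a and Rhox7b rose by 1.25 ± 0.29 and 1.11 ± 0.28 (adjusted p = 0.00600 and 0.00954), though neither passed without library 1. With libraries merged by replicate label, Rhox13, Rhox1 and Rhox7a passed, and Rhox7b (adjusted p = 0.0518) and Rhox4c (adjusted p = 0.117) did not. Over all genes in that setting, 695 rose and 238 fell of 10197 tested. The sum of the Rhox7a and Rhox7b rows went from a mean of 113 CPM to 292 CPM. Rhox4c fell by 2.58 on the log2 scale (SE 0.77, adjusted p = 0.0299), from 38.6 and 62.2 CPM to between 7.16 and 12.3 CPM, and the call was lost without library 4, 5, 7, 12 or 14. Rhox6 was at −0.84 ± 0.30 (adjusted p = 0.0648) and passed under several alternatives, among them DESeq2 (adjusted p = 0.0349). Over all tested members the median change was 0.01, against 0.07 over all genes. Scaling by the deposited UMI totals moved the latter to 0.26, and then 5 members rose and none fell, with Rhox4c at −2.37 (adjusted p = 0.0542). The count of 5 members became 3 without library 1, 9 without library 16 and 8 without library 18. Libraries 16 and 18 are E15.5 libraries, which enter this comparison through the shared filter on low counts, scaling and estimate of spread. The genes tested went from 10246 to 11150 without library 16 and 11152 without library 18.

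From E14.5 to E16.5, as germ cells pass into meiotic prophase, 16 members fell, against 7.51% of all genes tested, and 4 rose, against 8.81%. The median change was −1.04 (log2) over the 32 members and 0.09 over all genes. Rhox9 fell by 3.55 (SE 0.41, adjusted p = 2.17e-05, edgeR), Rhox5 by 4.39 (SE 0.55, adjusted p = 3.82e-05) and Rhox6 by 2.87 (SE 0.36, adjusted p = 3.82e-05). The E14.5 and E16.5 pools did not overlap for any of them. The share of all genes without overlap was not computed for this or any other comparison of stages.

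All 8 Rhox4 copies fell in the same comparison. The sum of the Rhox4 rows had a mean of 295 CPM at E11.5, 127 CPM at E14.5, 9.82 CPM at E16.5 and 5.82 CPM at E18.5. Rhox4a was at 47.2 and 72.96 CPM at E11.5, at 25.3, 29.8, 31.9 and 21.9 CPM at E14.5 and at 0.951 and 1.20 CPM at E16.5. The 3 stages did not overlap, and from E14.5 to E16.5 it fell by 4.71 (SE 0.84, adjusted p = 0.000749, edgeR). Rhox4c, which lacks CACGTG in the shared stretch, fell by 4.13 (SE 1.06, adjusted p = 0.0114), and Rhox4e, which has it, by 3.16 (SE 0.94, adjusted p = 0.0274). The difference between the Rhox4c and Rhox4e changes was not tested, nor was the part of CACGTG in any fall. For Rhox4d, E16.5 pools held 1 UMI and E14.5 pools 438, a ratio of 0.0053 (95% counting interval 0.000134 to 0.0297). As the copies share reads, the 8 calls are not 8 independent results.

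Of the 8 Rhox2 copies, 5 fell. Rhox2a, Rhox2c, Rhox2e, Rhox2g and Rhox2h passed, with changes from −0.96 to −1.40, while Rhox2b, Rhox2d and Rhox2f were at −0.85, −0.97 and −0.69 and did not. Rhox2a was at 268, 203, 255 and 241 CPM at E14.5 and at 111 and 142 CPM at E16.5. The groups did not overlap, and it fell by 0.97 (SE 0.27, adjusted p = 0.0196, edgeR). The Rhox2 rows summed to a mean of 718 CPM at E11.5, 896 CPM at E14.5, 456 CPM at E16.5 and 537 CPM at E18.5. The difference between the Rhox2 and Rhox4 changes was not tested.

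Of the 7 Rhox3 copies, Rhox3a, Rhox3a2, Rhox3e and Rhox3h rose, Rhox3c did not pass, and Rhox3f and Rhox3g were not tested. Rhox3a was at 0 CPM in every pool to E12.5, at 0.0451 and 0 CPM at E13.5 and at 0, 0, 0 and 1.12 CPM at E14.5. It was at 6.91 and 15.7 CPM at E16.5 and 12.9 and 9.91 CPM at E18.5. The E16.5 pools lay above the E14.5 pools, and Rhox3a rose by 5.23 ± 1.35 (adjusted p = 0.0128, edgeR), as did Rhox3a2, whose counts are the same. Rhox3e had 80 UMIs at E16.5 and 3 at E14.5, a ratio of 61.9 (95% counting interval 20.4 to 306). Rhox3h had 78 and 2 UMIs, a ratio of 90.5 (24.2 to 760). Both passed the test (adjusted p = 0.0150 and 0.0149, edgeR).

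With libraries merged by replicate label, 10 members fell and 0 rose: Rhox5, Rhox6, Rhox9, Rhox4a, Rhox4a2, Rhox4b, Rhox4c, Rhox4d, Rhox4e and Rhox2h. Over all genes in that setting, 430 fell and 363 rose of 10197 tested. The other Rhox2 calls, Rhox4f and Rhox4g were lost, as were Rhox3a (4.43, adjusted p = 0.0934), Rhox3a2, Rhox3e (adjusted p = 0.0761) and Rhox3h (adjusted p = 0.1005). The calls also rest on 2 libraries at E16.5. The count of 20 became 8 without library 20 and 7 without library 22, while Rhox4a, Rhox4a2, Rhox5, Rhox6 and Rhox9 passed in both. Rhox3a, Rhox3a2, Rhox3e and Rhox3h did not pass without library 22, and Rhox3e did not pass without library 20. Gonadal somatic markers moved in the same comparison: 4 of 10 rose, against 8.81% of all genes in the main fit. Their sum was 18.6 to 36.01 CPM in the E14.5 pools and 173 and 293 CPM in the E16.5 pools. None of the members' changes was adjusted for it. Rhox8, the member high in Negative pools, did not rise in these pools and was at 2.40 and 2.55 CPM at E16.5. The part of the somatic markers was not tested.

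From E16.5 to E18.5 no member passed, against 1.23% of all genes, of which 0.361% were higher and 0.869% lower (edgeR, 6 members at an unadjusted p under 0.05, and 0 by DESeq2). All 6 of these were lower at E18.5. With no filter on low counts, Rhox5 passed as higher and Rhox9 as lower. The median change was −0.01 over members and −0.06 over all genes.

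Rhox8, Rhox10, Rhox11 and Rhox12 stayed low in BVSC pools. Rhox8 differed among stages (adjusted p = 0.00202, edgeR), from 17.8 and 25.99 CPM at E11.5 to 1.86 and 1.05 CPM at E18.5. Rhox11 was at 0 CPM in every pool to E13.5, reached 4.97 and 2.22 CPM at E15.5 and was at 0 CPM again at E17.5 and E18.5 (adjusted p = 0.0137 over stages). Rhox12 was at 0 CPM in every pool to E14.5 and at most 2.59 CPM later. Rhox10 stood at 52.2 CPM in library 18 and at most 10.55 CPM in any other BVSC pool.

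Single cells showed how far these pool levels were shared. Each cell with at least 100000 UMIs was thinned to that number by random draws, which left out 9 of 133 BVSC cells at E11.5 and 50 of 188 at E16.5. A BVSC cell held UMIs of a median of 19.5 members at E11.5, 18 at E14.5, 13 at E16.5 and 14 at E18.5. Every BVSC cell kept had at least 4 members. In Negative cells the medians were 7 at E11.5, 4 at E14.5 and 1 at E16.5.

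Rhox9 was found in 100% of 233 thinned BVSC cells at E14.5 (95% exact interval 98.4 to 100), in 62.3% of 138 at E16.5 (53.7 to 70.4) and in 40.7% of 81 at E18.5 (29.9 to 52.2). The unthinned share at E18.5 was 55.7%. Rhox5 was found in 100% at E14.5, 52.2% at E16.5 and 77.8% at E18.5. Rhox13 was found in 27.4% of 124 cells at E11.5 (19.8 to 36.2), 87.98% at E14.5 and 99.3% of 140 cells at E15.5. Rhox3a was found in 1.29% at E14.5, 26.1% at E16.5 and 37.0% at E18.5. Rhox4a went from 90.3% at E11.5 to 54.5% at E14.5 and 3.62% at E16.5. These intervals cover counting error only.

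The same shares in Negative cells give the background. Rhox9 and Rhox5 were found in 100% of 23 Negative cells at E11.5 (85.2 to 100), the cells of at least 100000 UMIs. The median depth was 98990 UMIs over all 46 Negative cells of E11.5 and 315893 UMIs over all 133 BVSC cells. Rhox9 was found in 48.7% of 117 Negative cells at E14.5 and in 0 of 73 at E16.5, with an upper exact bound of 4.93%. Rhox13 was found in 0 of 23 Negative cells at E11.5 and 17.1% of 117 at E14.5. At E11.5 the shares of Rhox5 and Rhox9 were thus alike in both gates, while Rhox9 was at 707 and 749 CPM in BVSC pools and 42.8 to 113 CPM in Negative pools.

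Cells of one pool differed widely once the fall began. At E15.5, Rhox5 had a median of 8.42 CPM in 85 cells of library 16, with 14 cells above 100 CPM and a lowest cell of 0. In 55 cells of library 18 the median was 202 CPM, with 40 cells above 100 CPM and a lowest cell of 40.7 CPM. Rhox10 was found in 0 of 85 cells of library 16 and in 54 of 55 cells of library 18. The 2 libraries were alike in summed germ cell markers, at 4172 and 4444 CPM, and in somatic markers, at 90.3 and 107 CPM. Endothelial markers summed to 12.95 and 48.7 CPM, erythroid markers to 44.2 and 21.6 CPM and macrophage markers to 1.45 and 5.82 CPM, and their part in the Rhox values was not tested. At E16.5 in library 20, Rhox5 had a median of 6.74 CPM and a highest cell of 485 CPM.

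**Figure D4:**
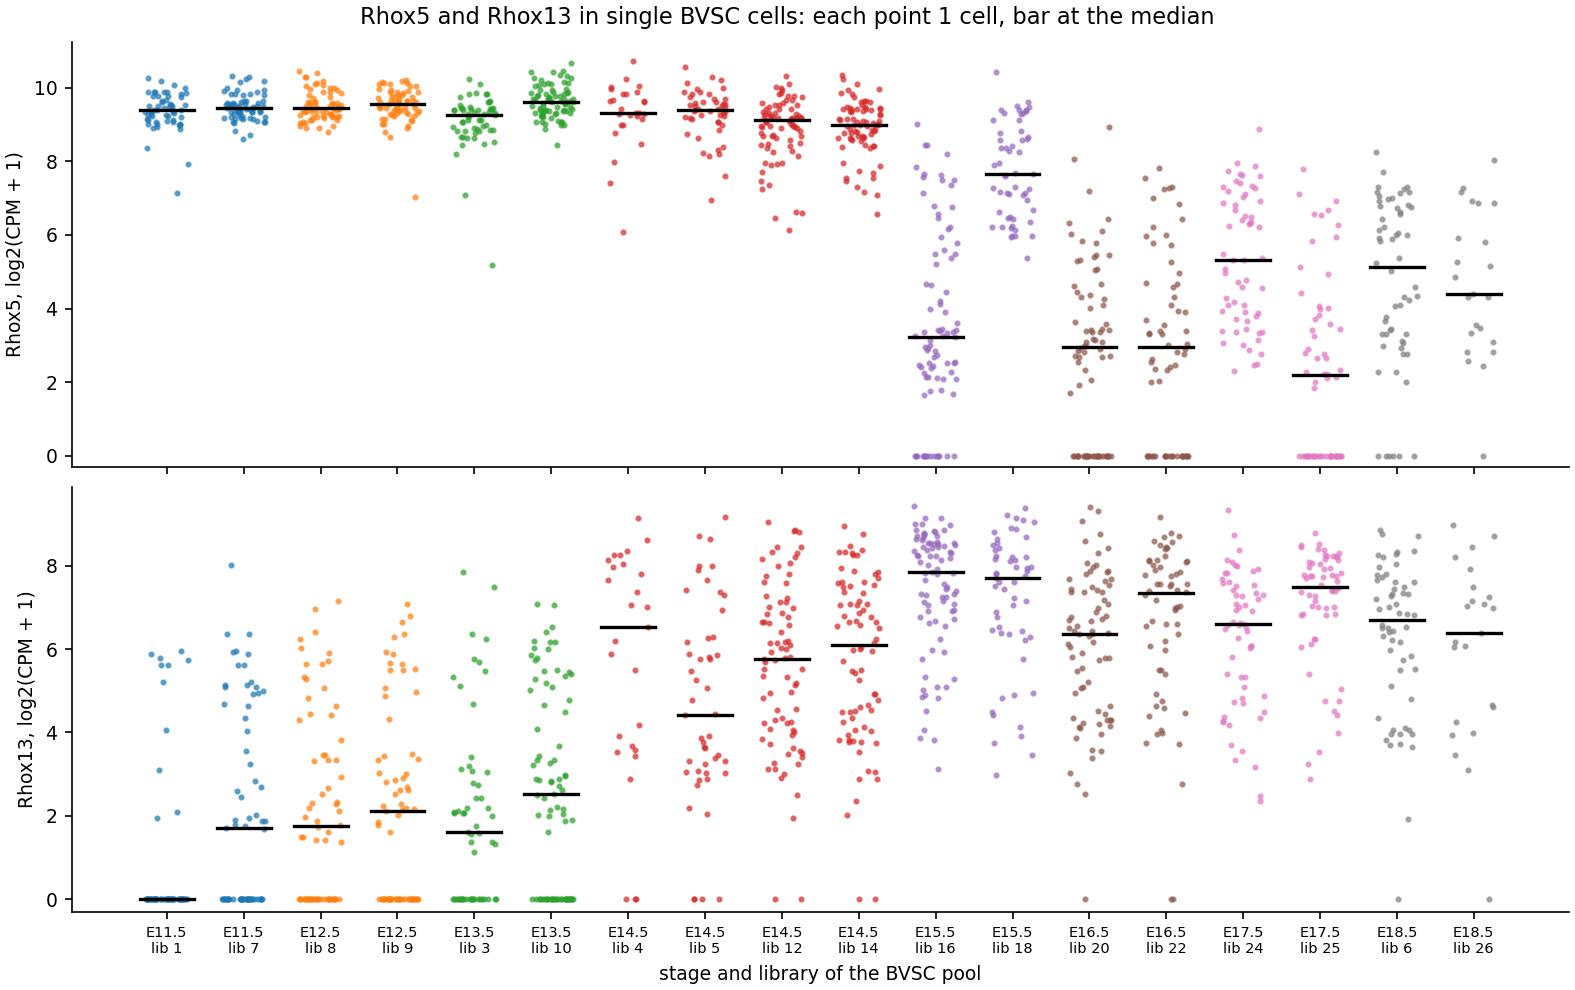
Rhox5 (top) and Rhox13 (bottom) in single BVSC cells of at least 100000 UMIs, as log2(CPM + 1) on the vertical axis, by stage and library on the horizontal axis. Each point is 1 cell, coloured by stage, with a bar at the median. Rhox5 medians are high through E14.5 and differ between the E15.5 libraries (8.42 and 202 CPM), while Rhox13 is at 0 in most cells of library 1.

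Across the 233 thinned BVSC cells of E14.5, Rhox5 and Rhox9 ran together (Spearman's rho 0.725), as did Rhox6 and Rhox9 (rho 0.737). Rhox13 ran against them, with rho −0.414 for Rhox9 and −0.379 for Rhox5. At E15.5, over 140 cells, rho was 0.489 for Rhox5 with Rhox9 and 0.0617 for Rhox9 with Rhox13. These are descriptions over cells that share 4 libraries at E14.5 and 2 at E15.5.

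In Negative pools 3 of 17 members tested differed among stages, against 3.35% of all genes (edgeR F test). Rhox9 was at 113, 42.8 and 90.2 CPM at E11.5, 118 CPM in the E13.5 pool, 36.1, 9.36 and 0.298 CPM at E14.5 and 0 CPM in both E16.5 pools (adjusted p = 0.00129). Rhox6 behaved alike, from 37.1 to 88.5 CPM at E11.5 to 0.807 and 0.116 CPM at E16.5 (adjusted p = 0.0117). Rhox8 was at 18.5 to 29.5 CPM at E11.5 and 117 to 156 CPM at E14.5 (adjusted p = 0.0417), a call lost without any one of 11 of the 17 libraries and with libraries merged by replicate label (adjusted p = 0.157). Rhox6 and Rhox9 also fell in BVSC pools over these stages. Rhox6 did not pass without the Negative pools of libraries that also held BVSC cells (adjusted p = 0.0845), or without library 3, the one E13.5 pool (adjusted p = 0.0530).

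The change from E11.5 to E18.5 differed between the gates for 2 of 33 members, both more negative in BVSC pools, against 4.53% of all genes that were more negative, 2.2% that were more positive and 6.73% in either direction (edgeR interaction, 6 members at an unadjusted p under 0.05). Rhox8 had an interaction of −5.94 ± 1.02 (log2, adjusted p = 0.000194). It went from 21.9 to 1.46 CPM in BVSC means (2 pools each) and from 22.8 to 77.5 CPM in Negative means (3 and 2 pools). For Rhox4b the adjusted p was 0.0215, but its Negative E11.5 pools held 0 UMIs, so the fitted size is not a measure of the difference. The call for Rhox4b was lost without library 1, 7 or 26.

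BV cells at E14.5, from 2 pools (libraries 4 and 5), were compared with the 4 BVSC pools. Column names at E14.5 also carry a letter, P, C or D. In library 4 the BV cells carry P and the BVSC cells D. In library 5 the BV cells carry C and D and the BVSC cells C and P. Gate and letter are thus not separate in these libraries. No member of 26 passed, against 0% of 7855 genes tested (edgeR, 3 members at an unadjusted p under 0.05: Rhox4e, Rhox8 and Rhox13; DESeq2 also called 0). Rhox9 was at 572 and 488 CPM in the BV pools and between 459 and 678 CPM in the BVSC pools, and the edgeR difference was −0.03 ± 0.22. Rhox8 was at 4.39 CPM in library 4 and 89.6 CPM in library 5, against 4.81 to 16.49 CPM in the BVSC pools. With libraries merged by replicate label there is 1 BV pool against 2 BVSC pools, and if that pool is taken to vary as they do, Rhox8 and Rhox13 passed as higher in BV cells. Somatic markers summed to 122 CPM in the BV pool of library 4 and 21.3 CPM in that of library 5, and germ cell markers to 3182 and 3576 CPM. The part of these markers and of the letters in the Rhox8 values was not tested.

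Genes around the cluster moved in both directions. Of the 20 nearest annotated genes with rows, 10 on each side, 13 were tested between gates, where 4 were higher and 5 lower in BVSC pools (38% and 29.8% of all genes) with a median of 0.04. From E14.5 to E16.5, 4 of 18 rose and 1 fell (8.81% and 7.51% of all genes), with a median of 0.54. The one that fell, Gm9, was also higher in BVSC pools by 4.86 ± 0.59 (adjusted p = 9.63e-09, edgeR). It fell by 5.12 (SE 0.72, adjusted p = 0.000102), from a mean of 32.1 CPM at E14.5 to 0.925 CPM at E16.5. Of all other X-linked genes, 86 of 688 rose and 57 fell in that step, against 8.81% and 7.51% of all genes.

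Other X-linked genes known from germ cells (Xlr, Fthl17, Mage and single genes, 45 of 46 listed genes with a row) were also higher in BVSC pools, in 25 of 27 tested (38% of all genes). More of them rose than fell in both early steps. From E11.5 to E14.5, 15 of 39 rose and 1 fell, with a median of 1.45, against 8.35% and 5.58% of all genes. From E14.5 to E16.5, 8 rose and 4 fell, with a median of 0.99, against 8.81% and 7.51% of all genes. Taf7l, a testis paralogue of a general transcription factor subunit, rose by 6.51 ± 0.61 in the first step and 1.39 ± 0.40 in the second. Among those that fell in the second step, Fthl17b and Fthl17d fell by 3.66 and 3.51 and Xlr3a by 2.05.

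Autosomal germline genes known to be controlled by DNA methylation (11 of 20 listed with a row) were all 11 higher in BVSC pools (38% of all genes), and 9 of 11 rose from E11.5 to E14.5 (8.35% of all genes). Dppa3, Mael, Asz1, Tex101, Hormad1, Sycp1, Sycp3 and Stk31 are also among the germ cell markers used above. Their levels by gate thus repeat that check of the gates. Of the 11, Dppa3, the gene of the Stella reporter, was the one that fell from E14.5 to E16.5, by 4.39 (SE 0.99, adjusted p = 0.00494, edgeR). Of 14 tested regulators of DNA methylation and chromatin, 5 fell and 1 rose in that step, against 7.51% and 8.81% of all genes. Tet1, which oxidises methylated cytosine, fell by 4.33 (SE 0.63, adjusted p = 0.000134), from a mean of 167 CPM at E14.5 to 8.64 CPM at E16.5. Tet3 rose by 2.74 ± 0.59 (adjusted p = 0.00357).

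Other homeobox genes of germ cells moved in both directions from E14.5 to E16.5, with 3 of 6 tested rising and 1 falling (8.81% and 7.51% of all genes). Nobox and Lhx8, known as oocyte transcription factors, rose by 6.02 ± 0.95 and 3.76 ± 0.56. Nanog, a pluripotency factor, fell by 5.74 (SE 1.10, adjusted p = 0.00153, edgeR). Of 4 tested X inactivation genes, all were lower in BVSC pools, against 29.8% of all genes. Xist differed by −4.60 ± 0.31 (log2).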

How the data were processed

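Per the labels' protocols, single cells were picked by mouth pipette, and poly(A) RNA was primed with oligo(dT), amplified by an adapted form of STRT-seq and enriched for 3′ ends before Illumina sequencing. The submitters' processing notes name CASAVA 1.8, UMI-tools, STAR, featureCounts, Subread and the mm10 build. The deposited values are UMI counts per gene and cell, not normalised. Settings for strand and for reads that match several copies are not stated in the labels. As analysed, the count table ends within a line: 16344 complete gene rows were read, which hold a median of 51.157% of each cell's deposited UMI total, and genes outside them were not analysed here. Stage and gate came from column names. The depth was 446683 to 27498626 UMIs per pool.

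Counts were summed per library, stage and gate over at least 5 cells, and CPM used the deposited UMI totals. Tests used edgeR 4.0.16 (R 4.3.3): TMM, filterByExpr, quasi-likelihood F tests and Benjamini-Hochberg adjustment over all genes, with the standard error taken as the log2 fold change over the square root of F. DESeq2 1.42.0, other scalings, no filter, a minimum of 10 cells, cells that go with their gate, a library block, libraries merged by replicate label (R1, R2) and leaving out each library were alternatives. The test was tested on simulated data. Members past an adjusted p of 0.05 were named, at most 12 per comparison by size, with the highest member of each subfamily. The members and gene lists were chosen with earlier results of these data known. Cell shares came from cells thinned to 100000 UMIs, with exact 95% intervals.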

Additional observations from a re-analysis of the deposited data

Results flagged for a closer look

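The change from E11.5 to E18.5 differed between BVSC and Negative pools for Rhox8 and Rhox4b by the interaction test in edgeR. The difference was −5.94 (log2) for Rhox8, which fell in BVSC pools and was higher in the E18.5 than in the E11.5 Negative pools. The fitted difference was −11.03 for Rhox4b, and its Negative E11.5 pools held 0 UMIs, so that this size depends on the prior count.

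The E11.5 BV pool entered no comparison, as it is 1 pool of 5 cells. Rhox2a stood at 17.9 CPM and Rhox2h at 13.4 CPM in it, above the E11.5 Negative pools, and these were the 2 members with over 3 UMIs there for which that was so. For Rhox2a the Negative pools were at 2.85, 11.6 and 13.8 CPM.

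Among the 4 BVSC pools of E14.5, 0 of 25 members had a pool set apart from the others by Dixon's criterion.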

How the results depend on the processing

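No change that passed in the main fit reversed direction under any alternative run. The direction of changes that did not pass was not compared. From E11.5 to E14.5, 5 members passed, and 8 with no filter on low counts. Leaving out 1 library gave 3 to 9. DESeq2 called 4 higher and 2 lower, and scaling by deposited totals 5 higher and 0 lower. From E14.5 to E16.5, 20 passed, and 7 to 22 with 1 library left out. From E16.5 to E18.5, 0 passed, 2 with no filter and 0 with any library left out. Among Negative stages 3 passed, 5 with no filter, 1 to 4 with 1 library left out and 5 without the Negative pools of libraries that also held BVSC cells, an alternative chosen after seeing the data. BV against BVSC gave 0, and 1 with no filter (Rhox8). The interaction gave 2, and 1 to 2 with 1 library left out. The library as a replicate block gave 19 members between gates (18 higher, 1 lower) against 22. With libraries merged by the deposited replicate label, 3 members passed from E11.5 to E14.5, 10 from E14.5 to E16.5 and 2 for BV against BVSC. For all of these but the gate and any-stage comparisons in BVSC pools, the merging was chosen after seeing the data. The labels R1 and R2 recur at each stage. Of 28 pairs of stages, 2 had a correlation over 0.1 of their R1 to R2 differences over genes (median −0.0106), so the numbers do not pair the samples. The replicate number as a block on merged libraries gave 3 members from E11.5 to E14.5, 9 from E14.5 to E16.5, 0 from E16.5 to E18.5, 24 over BVSC stages and 2 over Negative stages.

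Over all genes, E14.5 against E11.5 gave 1428 calls, 2204 with DESeq2, 836 without library 1, 526 without library 7 and 933 with merged libraries. E16.5 against E14.5 gave 1672, 733 without library 20, 598 without library 22 and 793 with merged libraries. E18.5 against E16.5 gave 126, 574 with DESeq2, 500 with no filter and 15 to 446 with 1 library left out. Negative stages gave 300, 687 with DESeq2 and 859 with no filter. BV against BVSC gave 0, 37 with DESeq2, 60 with no filter, 93 without library 5 and 412 with merged libraries. The block gave 836, 708 and 76 over the 3 steps. The interaction gave 760, 1330 with DESeq2 and 390 without library 6. Most stages have 2 pools, and members such as Rhox3f and Rhox3g were too sparse to test.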
